A study of Homo sapiens with 4 samples.

Results

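The fibrillar collagen chains of HGC27 cells were followed by RNA-seq in wild-type (wt) and RUNX3KO cells. HGC27 is an established human gastric cancer cell line, and RUNX3 is a transcription factor of the Runt domain family. The 9 members were taken by gene symbol from the 25559 symbols of the count tables: COL1A1, COL1A2, COL3A1, COL5A1, COL5A2, COL5A3, COL11A1, COL24A1 and COL27A1. The data comprised 4 polyA RNA libraries, 2 from wt cells and 2 from cells labelled RUNX3KO, grown without any labelled treatment. RUNX3 had been disrupted with Cas9 and a guide against the gene, and the edited cells were single-cell cloned. The number of clones is not given in the sources used here, so a difference between clones and an effect of RUNX3 loss cannot be told apart. It is also not stated whether the 2 libraries of a group came from separate cultures, and p-values then measure only the spread between these libraries.

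Fibrillar collagens are the rope-like proteins of the extracellular matrix. Their chains wind around each other in groups of 3 into a triple helix built of Gly-X-Y repeats, are trimmed at both ends outside the cell and line up into fibrils. Type I collagen is normally a pair of α1(I) chains, from COL1A1, with an α2(I) chain from COL1A2, and α1(I) chains can also form a trimer of their own. COL3A1 encodes the chain of type III collagen, a homotrimer. COL5A1, COL5A2 and COL5A3 encode the type V chains, and COL11A1 encodes α1(XI), a close relative of α1(V) that can pair with α2(V). Types V and XI start fibrils and limit their width. COL24A1 and COL27A1 encode chains of less studied fibrillar collagens with a shorter or interrupted helix. In tissues these genes are used mostly by fibroblasts and other connective tissue cells, and COL1A1, COL1A2 and COL3A1 are common markers of stroma in tumors.

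The repeat is visible in the exons themselves. The MANE Select transcripts of the members, the representative transcripts agreed between annotation groups, held between 51 and 67 coding exons, and 41.2% to 55.0% of these were exactly 54 bases long, which is 6 repeats of 9 bases. The exons printed here are those of the type I pair and of 3 related chains, α1(V), α3(V) and α1(XI), to show how alike and how distinguishable these messages are. They were read from GRCh37 (hg19), 5′ to 3′ on the coding strand, and capitals mark the glycine codons.
COL1A1 exon 8, chr17:48275310-48275363, minus strand: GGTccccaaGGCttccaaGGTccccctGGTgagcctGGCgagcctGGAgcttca
COL1A2 exon 8, chr7:94034005-94034058, plus strand: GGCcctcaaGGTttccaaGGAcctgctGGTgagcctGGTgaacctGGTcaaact
COL5A1 exon 15, chr9:137645696-137645749, plus strand: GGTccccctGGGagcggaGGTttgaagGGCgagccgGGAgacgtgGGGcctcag
COL5A3 exon 15, chr19:10106742-10106795, minus strand: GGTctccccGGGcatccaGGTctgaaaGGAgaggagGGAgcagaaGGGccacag
COL11A1 exon 15, chr1:103474019-103474072, minus strand: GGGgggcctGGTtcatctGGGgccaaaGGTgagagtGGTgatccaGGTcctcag
The type I pair matched at 40 of 54 bases, COL5A1 and COL5A3 matched at 37, and COL11A1 matched either of these at 28. Over whole transcripts, 0 of the 36 pairs of members shared a run of 50 bases, and the longest run shared by any pair was 30 bases.

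RefSeq promoter windows on GRCh38.p14, from 250 bases before to 50 bases after a start site, matched 5 of the 9 members. COL1A1, COL1A2, COL3A1 and COL5A2 had no window, so the searches below do not cover them. The windows of COL5A1, which fell, and of COL5A3 and COL11A1, which rose, are shown because these related chains moved apart, and capitals mark a CCAAT box in either orientation.
COL5A1 promoter, chr9:134641553-134641852, plus strand: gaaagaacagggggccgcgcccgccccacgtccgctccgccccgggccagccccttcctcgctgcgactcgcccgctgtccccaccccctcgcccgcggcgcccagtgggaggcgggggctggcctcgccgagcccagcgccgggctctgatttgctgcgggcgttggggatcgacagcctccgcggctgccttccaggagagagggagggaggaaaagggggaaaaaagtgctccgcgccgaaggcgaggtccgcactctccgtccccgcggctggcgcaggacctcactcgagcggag
COL5A3 promoter, chr19:10010455-10010754, minus strand: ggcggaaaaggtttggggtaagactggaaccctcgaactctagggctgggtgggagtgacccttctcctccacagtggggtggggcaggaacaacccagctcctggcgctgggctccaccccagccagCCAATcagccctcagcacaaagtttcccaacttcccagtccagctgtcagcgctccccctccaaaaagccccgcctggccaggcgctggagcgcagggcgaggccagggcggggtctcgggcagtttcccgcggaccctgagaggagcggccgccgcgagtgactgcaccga
COL11A1 promoter, chr1:103108473-103108772, minus strand: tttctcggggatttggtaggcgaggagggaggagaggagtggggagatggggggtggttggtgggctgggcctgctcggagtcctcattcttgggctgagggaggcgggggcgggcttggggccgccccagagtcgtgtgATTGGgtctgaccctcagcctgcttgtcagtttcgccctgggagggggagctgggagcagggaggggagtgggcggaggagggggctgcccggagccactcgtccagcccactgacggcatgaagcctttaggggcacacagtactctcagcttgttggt
CCAAT, searched on both strands, began 122 bases before the start site of COL5A3, and its reverse complement ATTGG began 110 bases before that of COL11A1. These letters occurred in 34.6% of all 35116 promoter windows. TGTGGT, the core sequence bound by Runt domain factors, was in 0 of the 7 windows of the 5 members on either strand, against 13.1% of all windows, and 2 of the 7, those of COL5A1, are nearly the same sequence. So few windows cannot be told from the share over all windows. TATAAA was likewise in 0 of these 7 windows, against 11.5% of all windows. A match or its absence describes only the letters in this window.

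Counts on genes ranged from 11731401 to 12110876 per library. Libraries of one group differed little beyond sampling noise, with a chi-square per degree of freedom of 1.22 for wt and 1.18 for RUNX3KO, against 17.1 and 17.3 between groups. RUNX3 itself had 351 and 308 counts in the wt libraries and 225 and 185 in the RUNX3KO libraries. On the log2 scale RUNX3KO minus wt was -0.70 (SE 0.0961, adjusted p = 1.43e-09, edgeR quasi-likelihood test, adjusted over all genes as everywhere below), which was no longer called without RUNX3KO replicate 2 (adjusted p = 0.0649). Per the methods of the study, the cloned cells had been tested for loss of RUNX3 in mRNA and in protein, and no protein was measured in the data used here. Of 10 gastric epithelial markers, 8 were at 0 in every library, while MUC1, a mucin of many epithelia, had between 85 and 100 counts (adjusted p = 0.474). EPCAM, an epithelial adhesion molecule, had at most 1 count. Fibroblast markers were abundant: 9 of 10 passed the filter on low counts, and their summed level was 1931 and 1914 CPM (read counts scaled to a common library size, with TMM factors) in wt and 1445 and 1448 CPM in RUNX3KO, with 8 lower and 0 higher, where 24.4% of all tested genes were lower. Of 8 epithelial markers, 3 were tested and called higher, where 24.5% of all tested genes were. KRT8, a keratin, had 19 and 11 counts in wt and 72 and 81 in RUNX3KO (adjusted p = 1.90e-13), while CDH1 (adjusted p = 0.0238) and CLDN7 (adjusted p = 0.0406) lay closer to the threshold. The summed level of all 8 was 4.83 and 4.32 CPM in wt and 12.5 and 13.0 CPM in RUNX3KO. Fibroblast markers were thus mostly lower and the tested epithelial markers higher, while the collagen genes below moved in both directions. The part of these markers in those results was not tested. Endothelial markers summed to at most 0.339 CPM and leukocyte markers to at most 2.46 CPM in any library.

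Fibrillar collagen genes moved in both directions. Of the 9 members, 8 passed the filter on low counts, and all 8 were called at an adjusted p under 0.05, 5 lower and 3 higher in RUNX3KO cells. Such calls were common here, since 48.9% of the 12967 tested genes were called, 24.4% lower and 24.5% higher, and 72.7% had groups that did not overlap. COL1A2 passed the filter only through its wt libraries and so had to be lower. With at least a 2-fold change as well, COL1A2 and COL5A1 were lower, against 3.95% of all tested genes, and COL5A3 was higher, against 2.11%. The median log2 fold change of the 8 tested members was -0.30, and that of all tested genes was -0.00213.

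COL1A2 (chr7:94024207-94060539, plus strand), the gene of the α2(I) chain, was almost lost from RUNX3KO cells. It had 1973 and 2030 counts in the wt libraries and 1 and 5 counts in the RUNX3KO libraries. Both RUNX3KO values lay close to the floor of 3 counts, far from either wt value. Summed over libraries and scaled to library size, the RUNX3KO level was 0.149% of wt (exact 95% interval 0.0545% to 0.324%, counting error only), which is 673-fold lower (309 to 1836). The fitted change was -9.34 in log2 units (SE 0.134, adjusted p = 5.14e-74), a p that is no independent support, since the gene passed the filter only through its wt libraries. The value rests on few reads: the value was -8.63 without RUNX3KO replicate 1 and -10.8 without RUNX3KO replicate 2. In bulk RNA, fewer expressing cells and less RNA per cell cannot be told apart.

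COL1A1 (chr17:48261462-48278993, minus strand), whose product fills the remaining places of the type I trimer, fell by far less. It had 15098 and 14293 counts in wt and 8010 and 8263 in RUNX3KO, so every RUNX3KO library lay below both wt libraries. Its level was 1245 ± 47.9 CPM (SD, n = 2) in wt and 683 ± 6.13 CPM in RUNX3KO. The fitted change was -0.87 on the log2 scale (SE 0.0237, adjusted p = 1.42e-51), and RUNX3KO cells held 54.9% of the wt level.

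COL3A1 (chr2:189839099-189877472, plus strand), the type III gene, was the most abundant member in every library and changed little in size. Its counts were 22779 and 22145 in wt and 18169 and 18775 in RUNX3KO. The groups did not overlap, and the fitted change was -0.30 in log2 units (SE 0.0209, adjusted p = 1.45e-22), or 81.5% of the wt level.

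The type V chains moved apart. COL5A1 (chr9:137533649-137736689, plus strand), the gene of α1(V), the chain found in most type V trimers, had 3149 and 2885 counts in wt and 1206 and 1186 in RUNX3KO. Its level was 256 ± 15.7 CPM in wt and 100 ± 2.49 CPM in RUNX3KO, a change of -1.35 in log2 units (SE 0.0393, adjusted p = 2.00e-49). COL5A2 (chr2:189896624-190090038, minus strand), the gene of its usual partner α2(V), went the other way, with 4906 and 4677 counts in wt and 7475 and 7593 in RUNX3KO. Its level rose from 406 ± 13.6 to 632 ± 1.23 CPM, a change of 0.64 in log2 units (SE 0.0263, adjusted p = 3.53e-38). COL5A3 (chr19:10070237-10121180, minus strand), the gene of α3(V), a chain with a narrower tissue range, was a minor transcript with 56 and 65 counts in wt and 178 and 182 in RUNX3KO. It rose from 5.13 ± 0.541 to 15.1 ± 0.0407 CPM, a change of 1.56 in log2 units (SE 0.144, adjusted p = 1.70e-16). At 2.95-fold (2.39 to 3.65, counting error only) this was the largest rise among the members.

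COL11A1 (chr1:103342023-103574428, minus strand) rose with COL5A2. It had 3468 and 3461 counts in wt and 4964 and 5104 in RUNX3KO, and its change was 0.53 in log2 units (SE 0.0285, adjusted p = 8.49e-30). COL27A1 (chr9:116917817-117074791, plus strand) fell slightly, from 770 and 796 counts to 624 and 662, a change of -0.30 in log2 units (SE 0.0575, adjusted p = 7.31e-06). COL24A1 (chr1:86194916-86622626, minus strand) was barely detected, with 8 and 5 counts in wt and 7 and 0 in RUNX3KO, and was not tested. The ratio of its RUNX3KO to wt level was 0.534 with an interval of 0.18 to 1.44, so a difference was not detectable at this depth.

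**Figure D1:**
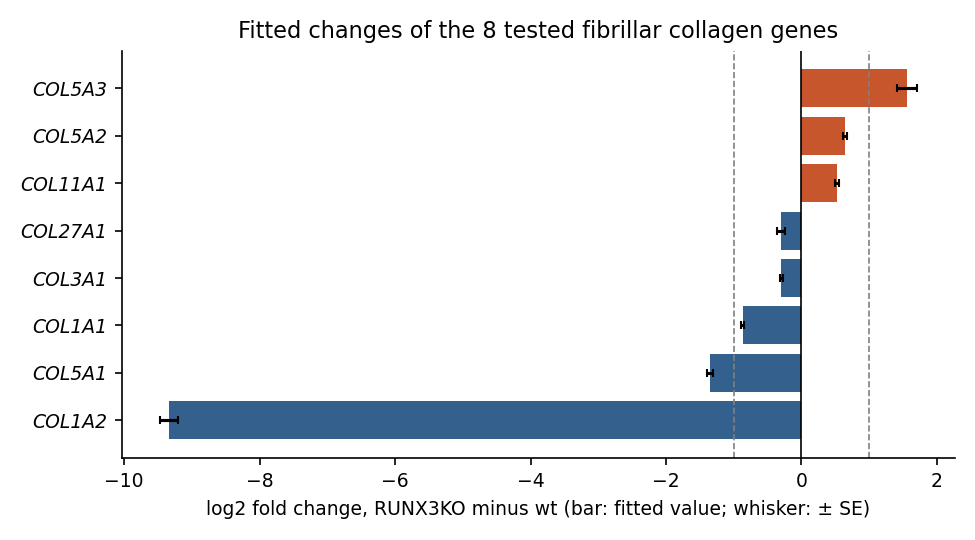
Fitted log2 fold change of each of the 8 tested members, RUNX3KO minus wt, with whiskers of ± SE and dashed lines at a 2-fold change either way. COL1A2 (-9.34) and COL5A1 (-1.35) lie beyond the lower line and COL5A3 (1.56) beyond the upper line, and the other members lie between them.

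Because the chains of a trimer are made in the same cell, their ratios were taken within each library, which does not depend on library scaling. Levels between genes were compared as CPM per kilobase of merged exons. COL1A2 per COL1A1 was 0.109 and 0.118 in the wt libraries and 0.000104 and 0.000504 in the RUNX3KO libraries. In wt cells, therefore, COL1A2 RNA already stood well below COL1A1 RNA, at a mean of 0.114 ± 0.00668 (SD, n = 2), and at 0.146 per coding length or 0.159 per MANE Select transcript length. From summed counts, the ratio fell 369-fold (169 to 1007, counting error only) in RUNX3KO cells. The difference of the mean log2 ratios was -8.95, and it was -7.81 without RUNX3KO replicate 1 and -10.1 without RUNX3KO replicate 2. As a share of the reads on both genes, COL1A2 took 11.6% (exact binomial 95% interval 11.1% to 12%) and 12.4% (11.9% to 13.0%) in wt. In RUNX3KO it took 0.0125% (0.000316% to 0.0695%) and 0.0605% (0.0196% to 0.141%).

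Among the type V chains, COL5A2 exceeded COL5A1 in every library, and the excess widened. The ratio of COL5A2 to COL5A1 was 2.38 and 2.47 in wt and 9.45 and 9.76 in RUNX3KO, a 3.97-fold rise (3.76 to 4.19). COL5A3 to COL5A1 went from 0.0293 and 0.0371 to 0.243 and 0.252, a 7.51-fold rise (6.06 to 9.35). The levels of these ratios, but not their changes, depend on the length: per coding length the means in wt and RUNX3KO were 1.95 and 7.72 for COL5A2 to COL5A1 and 0.0212 and 0.159 for COL5A3 to COL5A1. From counts alone they were 1.59 and 6.3, and 0.0202 and 0.151. Of the summed type V level, COL5A1 made up 29.4% and 28.5% in wt and 9.35% and 9.08% in RUNX3KO. COL5A2 made up 69.8% and 70.4% in wt and 88.4% and 88.6% in RUNX3KO, while COL5A3 stayed at or under 2.29% in every library.

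COL11A1 overtook COL5A1 further, whereas its ratio to COL5A2 moved little. COL11A1 to COL5A1 was 1.35 and 1.47 in wt and 5.05 and 5.28 in RUNX3KO, a 3.67-fold rise (3.46 to 3.88). COL11A1 to COL5A2 was 0.569 and 0.596 in wt and 0.535 and 0.541 in RUNX3KO, with a change of 0.924-fold (0.888 to 0.962). Groups did not overlap for any of these 5 ratios. An exact two-sided permutation test of 2 against 2 libraries gave p = 0.333 for each, which is the smallest p this design allows.

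The summed level of all members was 561 and 542 CPM per kilobase in wt and 451 and 455 in RUNX3KO. The means were 552 ± 13.7 and 453 ± 3.03, a fall of 17.8%, and without COL1A2 the fall was 15.4%. The exact permutation p was again 0.333, the smallest possible. COL3A1 made up 51.0% of the sum in wt and 50.6% in RUNX3KO. With other lengths or none, its share lay between 43.8% and 47.5% in wt and between 44.8% and 49.6% in RUNX3KO. COL1A1 went from 25.1% to 16.7%, or per coding length from 29.5% to 20.5%. COL5A1 went from 4.15% to 1.99% and COL1A2 from 2.84% to 0.00509%. The share of COL1A2 in wt was 4.31% per coding length and 4.58% per MANE Select length, and in the RUNX3KO libraries it was 0.00174% and 0.00845% per merged exon length. COL5A2 went from 10.1% to 19.1% and COL11A1 from 5.85% to 10.3%.

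In wt cells the order of levels per kilobase was COL3A1, COL1A1, COL5A2, COL11A1, COL5A1, COL1A2, COL27A1, COL5A3 and COL24A1, and no neighbours in it overlapped. Per MANE Select transcript length, COL1A2 came before COL5A1. In RUNX3KO cells the order was COL3A1, COL5A2, COL1A1, COL11A1, COL5A1, COL27A1, COL5A3, COL24A1 and COL1A2, of which the last pair overlapped. The place of COL5A2 above COL1A1 (86.4 ± 0.168 against 75.8 ± 0.68 CPM per kilobase) depended on the length used, since COL1A1 came first per coding length, per MANE Select length and without a length.

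Genes that make, process and organize fibrillar collagen were followed in 10 lists with 82 genes, of which 57 were tested. Of these, 35 were lower, 9 higher and 13 not called, or 77.2% called, beside 48.9% of all tested genes. Of the genes called lower, 5 (TLL2, COL14A1, COL21A1, FMOD and ITGA11) passed the filter only through their wt libraries and are thus no independent support for the direction, although TLL2, at 13 and 10 RUNX3KO counts, lay next to the limit. With a minimum of 10 counts in every library 31 were lower and 9 higher. Without RUNX3KO replicate 1 or replicate 2, the counts were 23 lower and 4 higher in each case.

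Of 17 tested genes for chain modification and folding, 6 were lower and 4 higher, with a median change of -0.03 in log2 units, and none reached 2-fold. For this list and the next, the shares over all tested genes were 24.4% lower and 24.5% higher. SERPINH1, the collagen chaperone HSP47, had 9914 and 9684 counts in wt and 8607 and 8667 in RUNX3KO (log2 fold change -0.20, adjusted p = 1.60e-11). P4HB, a subunit of prolyl 4-hydroxylase, changed by -0.24 on the log2 scale (adjusted p = 7.41e-16). Of 5 tested genes for export from the endoplasmic reticulum, 3 were lower and 1 higher, with a median of -0.25. SEC23A and SEC24D, parts of the COPII coat that buds from the endoplasmic reticulum, named here after their values were seen, changed by -0.59 (adjusted p = 2.00e-20) and -0.47 (adjusted p = 3.63e-09) in log2 units. The call of SEC24D, not that of SEC23A, was lost when either RUNX3KO library was left out. The counts of this list fell to 1 lower and 0 higher when either RUNX3KO library was left out. Of the remaining fibrillar chains, COL11A2 had 56 and 62 counts in wt and 41 and 37 in RUNX3KO (-0.61, adjusted p = 0.0117), a call lost without wt replicate 2 or without either RUNX3KO replicate. COL2A1, the cartilage type II gene, had between 4 and 10 counts and was not tested.

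Enzymes that act on secreted collagen were mixed, where 24.4% of all tested genes were lower and 24.5% higher. For propeptide removal, 5 of 7 tested genes were lower and 1 higher, and only 2 were lower when either RUNX3KO library was left out. ADAMTS14, a procollagen N-proteinase, fell (-1.01, adjusted p = 4.17e-08), and TLL1, a relative of the C-proteinase BMP1, rose from 126 and 131 counts to 270 and 303 (1.14, adjusted p = 4.42e-16). TLL2, of the same family, had 32 and 22 counts in wt and 13 and 10 in RUNX3KO (-1.24, adjusted p = 0.00144), a call lost without wt replicate 1 or either RUNX3KO replicate. Of 4 tested crosslinking enzymes, 2 were lower and 1 higher. LOXL1, a lysyl oxidase, fell from 703 and 636 counts to 242 and 302 (-1.31, adjusted p = 1.22e-27). LOX changed by 0.17 on the log2 scale (adjusted p = 0.0127), and this call was lost without the filter on low counts, without wt replicate 2 and without either RUNX3KO replicate.

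The RNAs of proteins at the fibril surface were followed next. The fibril-associated collagens had 5 of 6 tested genes lower and 0 higher (median -1.07), with 3 lower at a minimum of 10 counts in every library and 2 lower without RUNX3KO replicate 2. Over all tested genes 24.4% were lower. The count and the median of this list include COL14A1 and COL21A1, which passed the filter only through their wt libraries and are no independent support. COL12A1 fell from 2819 and 2780 counts to 1243 and 1080 (-1.28, adjusted p = 2.92e-46). COL14A1, with 18 and 28 counts in wt and 4 and 2 in RUNX3KO (-2.90, adjusted p = 2.79e-07), and COL21A1 (-1.43, adjusted p = 0.000182) were not called without RUNX3KO replicate 2. Of the small leucine-rich proteoglycans, 4 of 4 tested were lower (median -0.40), or 3 with that minimum. DCN and LUM of this list are also among the fibroblast markers above. FMOD, fibromodulin, fell from 80 and 91 counts to 6 in both RUNX3KO libraries (-3.82, adjusted p = 3.22e-20). All 4 tested fibril organizers were lower as well (median -0.96). FN1, fibronectin, fell from 115 and 95 counts to 15 and 11 (-3.01, adjusted p = 9.22e-20), and THBS1, thrombospondin 1, from 1010 and 998 to 375 and 392 (-1.40, adjusted p = 2.11e-36).

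Of 7 tested collagen receptors, 3 were lower and 2 higher, with a median of -0.14, with 1 lower without RUNX3KO replicate 1, 1 higher without wt replicate 2 and 0 higher without either RUNX3KO replicate. ITGA11, the α subunit of a collagen-binding integrin, had 10 and 12 counts in wt and 2 in each RUNX3KO library, at least 3.7-fold lower against a floor of 3 counts per library, and its call (adjusted p = 0.000682) was lost without either RUNX3KO replicate. Of 5 listed collagenases, 2 were tested and both were lower, while MMP1, MMP8 and MMP13 had at most 1 count in any library. For the receptors and the collagenases alike, the shares over all tested genes were 24.4% lower and 24.5% higher. MMP2, a gelatinase that also cuts fibrillar collagen, fell from 309 and 311 counts to 36 in both RUNX3KO libraries (-3.12, adjusted p = 3.97e-35), and the membrane-bound MMP14 from 1592 and 1478 to 746 and 760 (-1.04, adjusted p = 1.64e-34).

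The loci of the members were compared with the genes around them on GRCh37. The tested neighbour on each side of COL1A2 had a value near 0. BET1, 391 kb before it, had a log2 fold change of -0.01 (adjusted p = 0.947), and CASD1, 78.0 kb after it, of -0.08 (adjusted p = 0.641). The 10 nearest tested genes, 5 on each side, had a median of -0.08 and ranged from -1.62 to 0.75. Of these 10, 4 were called lower and 2 higher, where 24.4% and 24.5% of all tested genes were. Around COL5A1, RXRA changed by -0.25 (adjusted p = 2.11e-05) and OLFM1 by 0.15 (adjusted p = 0.202). The 10 nearest had a median of 0.15, with 1 called lower and 6 higher. COL5A3 rose among genes with negative values. OLFM2, 23.0 kb before it, fell by 0.82 on the log2 scale (adjusted p = 1.24e-24), and PPAN, after it, had -0.21 (adjusted p = 0.126). All 10 of the tested genes nearest to COL5A3 had negative values, with a median of -0.43. Of these, 7 were called lower, where 24.4% of all tested genes were. COL3A1 and COL5A2 lie 19.2 kb apart on chromosome 2 on opposite strands, and these neighbours moved in opposite directions.

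The genes nearest to COL1A2 in pattern over the 4 libraries, among 10861 with a mean of at least 50 counts, were GABRB2, VSNL1 and KIAA1644, at Euclidean distances of 2.58, 2.84 and 2.89 in centred log2(CPM + 0.5). GABRB2, a subunit of the GABA-A receptor, had 266 and 298 counts in wt and 2 and 0 in RUNX3KO, at least 94.9-fold lower against the floor of 3 counts per library. VSNL1, a calcium sensor of neurons, and KIAA1644 were at least 79.6-fold and 68.5-fold lower. For COL5A3 the nearest were LIMS2, VAV3 and PCLO, at distances of 0.0806, 0.14 and 0.144, and LIMS2 had 37 and 43 counts in wt and 130 and 125 in RUNX3KO.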

How the data were processed

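The deposited tables held raw counts of reads per gene symbol, made by the authors without normalization. Per the labels and the submitters' processing notes, TruSeq Stranded libraries were aligned to hg19 with HISAT2 2.1.0 and counted with HTSeq, whereas the paper names STAR and featureCounts. The strand setting is not given in the sources used here. The 5 closing rows, reads without a gene, took 25.9% to 28.1% of all counts and were left out. Members and gene lists were chosen with earlier results of these data known.

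Genes were kept by filterByExpr (12967 of 25559) in edgeR 4.0.16 with R 4.3.3, scaled by TMM and compared, RUNX3KO minus wt, with the quasi-likelihood test, p-values being adjusted over all tested genes by Benjamini-Hochberg. SE was |log2 fold change| over the root of F. Without replication between clones, errors cover these libraries only, and intervals cover counting error only. Positions and lengths came from GENCODE on GRCh37, with 21663 symbols matched and a position for 93.9% of tested genes. This is not the annotation the reads were counted on. Merged exons of all transcripts gave the main length. The steps were tested on simulated data.

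Named genes were RUNX3, every member, list genes called with at least a 2-fold change, SERPINH1, P4HB, LOX, COL2A1 and COL11A2, the tested neighbours of members called at 2-fold, and the 3 genes nearest in pattern to the member with the largest fall and to that with the largest rise. Marker genes named beside them (EPCAM, KRT8, CDH1, CLDN7, MUC1), SEC23A and SEC24D were chosen after their values were seen. Alternatives were other scalings, filters and tests (DESeq2 1.42.0 and limma 3.58.1 among them), a replicate block, a larger prior count, other lengths, 10 neighbours on each side and each library left out.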

Additional observations from a re-analysis of the deposited data

How the results depend on the processing

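All 8 tested members kept their direction and their call under every alternative in which they could be tested. COL1A2 has no value with a minimum of 10 counts in every library, so that 1 member instead of 2 was lower by at least 2-fold there. Leaving out a library moved COL1A2 between -10.8 and -8.63 on the log2 scale, COL5A1 between -1.41 and -1.28 and COL5A3 between 1.45 and 1.67. For COL27A1 the range was -0.327 to -0.266, with a largest adjusted p of 0.0492. These fits leave a group with 1 library, which is assumed to vary like the other group. The ratio of the summed level of the members in RUNX3KO to that in wt was 0.822, and it was 0.788 per coding length, 0.796 without a length and 0.781 per MANE Select length, the last of these chosen after seeing the data. The share of COL5A1 in the type V level in wt was 28.9%, and between 33.4% and 38.3% with other lengths. Same-numbered libraries did not deviate together (correlation 0.0257), so replicate numbers were taken as names only. With the replicate number as a block, 5 members were lower and 3 higher, 2 and 1 of them by at least 2-fold, and over all genes 3143 were lower and 3143 higher. Over all genes, 3158 were called lower and 3183 higher. DESeq2 called 1863 and 1829, the absence of a filter gave 2464 and 2447, and leaving out RUNX3KO replicate 1 or replicate 2 gave 1531 and 1483 or 1378 and 1285. DESeq2 also did not call COL11A2, TLL2, LOX or ITGA11. With library size alone 3444 were lower and 2877 higher. The depth limited COL24A1 and the RUNX3KO level of COL1A2.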

Other observations

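COL5A1 and COL11A1, whose products are close relatives, moved in opposite directions, and their summed level was also taken. This sum was formed after the values were seen. It was 56.2 and 54.2 CPM per kilobase of merged exons in wt and 55.4 and 55.5 in RUNX3KO. COL11A1 made up 57.5% and 59.6% of the sum in wt and 83.5% and 84.1% in RUNX3KO. Per coding length the sum was 101 ± 2.92 in wt and 96.2 ± 0.0661 in RUNX3KO (SD, n = 2), and without a length it was 549 ± 16.1 and 523 ± 0.315 CPM. In both of these the groups did not overlap, so whether the sum differed depends on the length used. The sum per COL5A2 was 0.99 and 1.0 in wt and 0.64 and 0.644 in RUNX3KO per merged exon length. This level also depends on the length: the means in wt and RUNX3KO were 1.11 and 0.684 per coding length, and 1.35 and 0.827 without a length.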
